A study of Mus musculus with 2 samples.

Results

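Mir140 and Mir455 are 2 microRNA genes best known from cartilage, and here they were followed in skeletal muscle. They were picked by symbol in the GENCODE M21 annotation and matched by Ensembl identifier, by a rule that uses no measured value, although the pair was proposed with earlier results of these data known, and make up 2 of the 2202 microRNA genes counted. The series holds 1 group of 2 libraries, biological replicates 1 and 2, each made from the whole gastrocnemius (a calf muscle) of a male B6CASTF1/J mouse aged 2 months. These mice are F1 hybrids between C57BL/6J and CAST/EiJ, and the labels give each library its own mouse number but the same donor identifier. That the libraries come from separate mice rests on those numbers, and the SDs below measure the spread between these 2 libraries, which may be technical. RNA inserts under 30 nucleotides were sequenced. There was no treatment, mutant or second tissue, so the data show how abundant the 2 genes were and how far the 2 libraries differed in them. Levels are counts of a gene per 1000000 counts assigned to microRNA genes in that library (CPM).

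A microRNA is cut from a hairpin in a longer transcript, and 1 or both arms of the hairpin (5p and 3p) are kept as a mature strand that guides silencing of messenger RNAs through its seed, bases 2 to 8. miR-140 is induced by SOX9, the master regulator of chondrocytes, and mice without it have short limbs and early wear of joint cartilage. miR-455 is expressed in developing cartilage as well and has also been studied in brown fat. The host of Mir140, Wwp2, encodes a ubiquitin ligase, and the host of Mir455, Col27a1, encodes a fibrillar collagen of cartilage.

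The mature strands are shown first because the libraries hold inserts under 30 nucleotides, which these strands fit within. Read lengths were not measured here. From the RefSeq table (GRCm38.p6), 1 mature entry was found for Mir140 and 2 for Mir455, printed 5′ to 3′ with the seed in capitals. miR-140-5p and the Mir455 hairpin are named only.
miR-140-3p: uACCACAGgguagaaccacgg
miR-455-5p: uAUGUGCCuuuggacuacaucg
miR-455-3p: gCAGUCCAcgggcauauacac

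The 3 strands have 3 different seeds, so Mir140 and Mir455 do not belong to 1 seed family by these entries. The strand miR-140-3p covers bases 45 to 65 of its 70-base gene. The Mir455 strands cover bases 17 to 38 and 54 to 74 of an 82-base gene. The deposited counts are per gene and do not separate the arms, so each value below is the sum of whatever was assigned to the gene.

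In the hairpin of Mir140, shown because the strand above is cut from it, the capitals mark miR-140-3p.
Mir140 hairpin: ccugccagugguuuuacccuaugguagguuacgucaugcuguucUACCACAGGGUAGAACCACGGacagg

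RNAfold predicted a stem of 30 base pairs around a single loop for this sequence, with a minimum free energy of -39.1 kcal/mol. Of the 21 bases of miR-140-3p, 20 were paired in that structure. This is a computed fold and not a measurement.

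Both genes lie alone, on the plus strand of a protein-coding host transcribed in the same direction. Mir140 (ENSMUSG00000065439.1) occupies chr8:107551244-107551313 in mm10, in intron 16 of 23 of the coding Wwp2 transcript with the most exonic bases. That intron is 2141 bases long, and the gene begins 1108 bases after the upstream exon and ends 963 bases before the next. It sits 114.9 kb from the start of the 122231-base host, or 94.0% of the way along it. A noncoding Wwp2 transcript with a retained intron has an exon over the gene. Mir455 (ENSMUSG00000070102.1) occupies chr4:63256851-63256932, in intron 10 of 60 of the only coding transcript of Col27a1. It sits 42.8 kb from the start of Col27a1, 35.4% of the way along. The next exon begins 127 bases downstream, against 2109 bases to the exon upstream. No exon of any annotated Col27a1 transcript covers it.

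**Figure D1:**
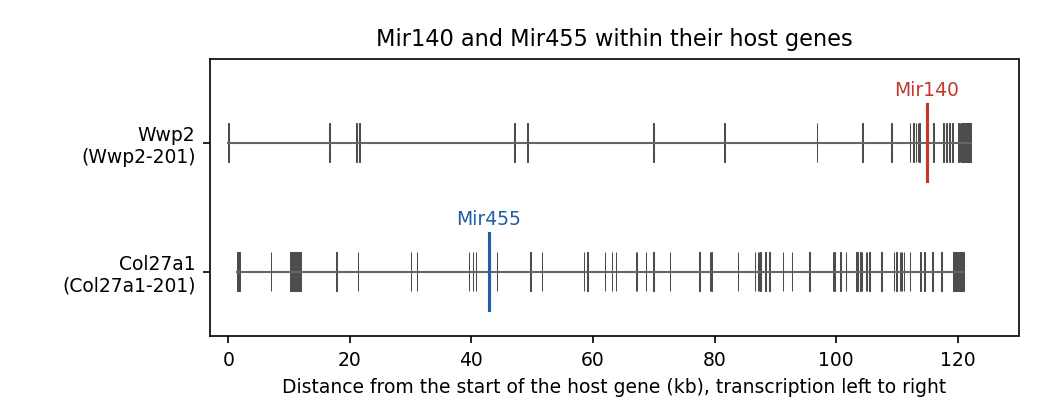
Exons (grey boxes) of these coding transcripts of Wwp2 and Col27a1 against distance from the start of the host gene in kb, with each microRNA gene as a coloured line. Mir140 lies at 114.9 kb, near the 3′ end of Wwp2, and Mir455 at 42.8 kb, in the first part of Col27a1.

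Neither gene is part of a microRNA cluster. The microRNA genes nearest to Mir140 were Gm23646 and Gm22825, at 289.6 and 291.1 kb, and those nearest to Mir455 were Gm44497 and Mir3095, at 4376 and 4816 kb. All 4 of these neighbours had 0 counts in both libraries. No gene is annotated on the opposite strand of either member. Mir455 was the only counted gene in an intron of a collagen gene (symbols of the form Col27a1) on the same strand.

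Sequence sharing matters for the reading of the counts, because 75.2% of reads in replicate 1 and 74.4% in replicate 2 matched several places and were assigned to no gene. Mir140 and Mir455 were little exposed to sharing among annotated microRNA genes. The longest run of bases that either had in common with any of the other genes, on either strand, was 11 bases (with Mir767 for Mir140 and with Mir5125 for Mir455). By contrast, 76 of the 311 genes with 10 or more counts (24.4%) share a run of 20 bases with a microRNA gene elsewhere. In the 141767 annotated transcripts, miR-140-3p was found in Mir140 and in its host Wwp2 only, and both Mir455 strands in Mir455 only. Copies outside annotated transcripts were not analysed here.

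By assigned reads, Mir140 was among the more abundant microRNA genes of this muscle and Mir455 stood near the middle of the detected ones. Mir140 had 1775 counts in replicate 1 and 4586 in replicate 2, or 2779 and 2018 CPM. Its exact Clopper-Pearson 95% intervals were 2651 to 2911 CPM in replicate 1 and 1960 to 2078 in replicate 2. These intervals do not overlap, and replicate 1 was the higher library. The mean was 2399 ± 538 CPM (SD, n = 2), or 0.278% and 0.202% of the assigned counts in replicates 1 and 2.

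Mir455 had 55 counts in replicate 1 and 243 in replicate 2, or 86.1 and 107 CPM. The intervals were 64.9 to 112 CPM in replicate 1 and 93.9 to 121 in replicate 2. Here the intervals overlap, and replicate 2 was the higher library. The mean was 96.5 ± 14.7 CPM (SD, n = 2). With 55 counts the interval of Mir455 in replicate 1 spans 54.8% of its value, against 9.35% for Mir140 in the same library.

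By rank, Mir140 stood at place 37 of 2202 genes in replicate 1 and at place 40 in replicate 2. Mir455 stood at place 155 and at place 143. Detection was set at a minimum of 2 CPM in each library, which 303 genes reached, both members included. The median of the mean level over detected genes was 93.4 CPM. Mir140 lay 25.7-fold above that median and Mir455 at 1.03 times it. These ranks and medians count assigned reads only. Genes that share sequence lose reads that match several places, so the members may stand too high in the order. How many reads each gene lost was not measured.

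**Figure D2:**
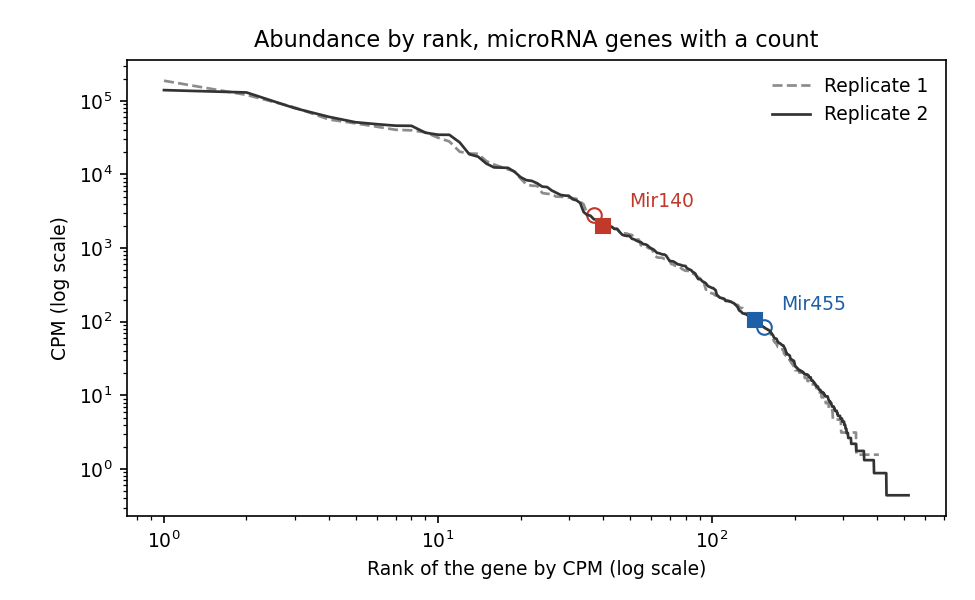
CPM against rank of the gene, both on log scales, for the microRNA genes with a count in each library (dashed line and open circles, replicate 1; solid line and filled squares, replicate 2). Mir140 falls at ranks 37 and 40, on the upper part of the curves, and Mir455 at ranks 155 and 143, where the curves bend downward.

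The counting interval of Mir140 overlapped those of few genes, and that of Mir455 overlapped those of many. In replicate 1 the interval of Mir140 overlapped those of 3 other genes, Mir28a, Mir130a and Mir145a. In replicate 2 it overlapped those of 4, Mir125a, Mir145a, Mir361 and Mir379. The interval of Mir455 overlapped those of 44 genes in replicate 1 and 28 in replicate 2. Overlap of intervals is not a test of a difference between genes. With this many overlaps, the exact place of Mir455 in the order is not fixed at this depth.

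Introns are a common home for microRNA genes, and against that class the 2 members held similar places to those above. Of the 2202 genes, 793 lie in a protein-coding gene on the same strand and outside the exons of its coding transcripts. Of these intronic genes 123 were detected, 56 reached 100 CPM in both libraries and 27 reached 1000 CPM. Mir140 ranked 17 and 19 among the 793 in replicates 1 and 2, and Mir455 ranked 67 and 58. Relative to the median of 97.6 CPM over detected intronic genes, Mir140 was 24.6-fold higher and Mir455 was at 0.989 times it. The limit from reads lost to shared sequence holds for these places too. The level of the host transcripts was not measured here.

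Within each library Mir140 exceeded Mir455 by far more than counting error. The ratio of their counts was 32.3 in replicate 1 (exact 95% interval 24.7 to 43.0) and 18.9 in replicate 2 (16.6 to 21.6). The intervals of the 2 libraries do not overlap, with the wider ratio in replicate 1. The mean ratio was 25.6 ± 9.48 (SD, n = 2). Mir140 gave 96.99% and 94.97% of the summed counts of the pair in replicates 1 and 2. The mature strands are 21 or 22 bases long, so no correction for length was made. How efficiently each strand enters a library was not measured, so the ratio is one of reads and not of molecules.

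Between the libraries, 1 of the 2 genes passed the test: Mir140 was lower in replicate 2, and Mir455 did not pass in either direction. Mir140 in replicate 2 was at 0.726 times its level in replicate 1 (95% interval of counting error 0.687 to 0.768, log2 ratio -0.46). In the exact binomial test its Benjamini-Hochberg adjusted p over all 311 genes tested was 7.61e-28. Mir455 was at 1.24 times its level in replicate 1 (0.924 to 1.696, log2 ratio 0.30), and its adjusted p in the exact binomial test was 0.292. The interval of Mir455 holds ratios on both sides of 1, so a difference was not detectable at this depth, and its upper bound leaves room for a ratio well above 1.

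Differences of this size were common among the other genes. The same test called 126 of 311 genes, or 40.5%, and 54 of them, or 17.4%, were lower in replicate 2 as Mir140 was. With TMM scaling the balance of all calls turned from 72 higher and 54 lower to 55 higher and 69 lower, while Mir140 kept its direction and its call. Among the 311 genes, 60 had a lower log2 ratio than Mir140 and 98 had a higher one than Mir455. The middle 50% of these genes had log2 ratios between -0.34 and 0.46. The test sets the 2 libraries against counting error alone and is no test between mice. When the average spread between the libraries was counted as noise, with edgeR's exact test of 1 library against 1 at a common coefficient of variation of 27.6%, the unadjusted p was 0.419 for Mir140 and 0.619 for Mir455. That test called 2 of the 311 genes and neither member. Its spread was estimated from the same 2 libraries, so it could hardly call a ratio of average size.

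**Figure D3:**
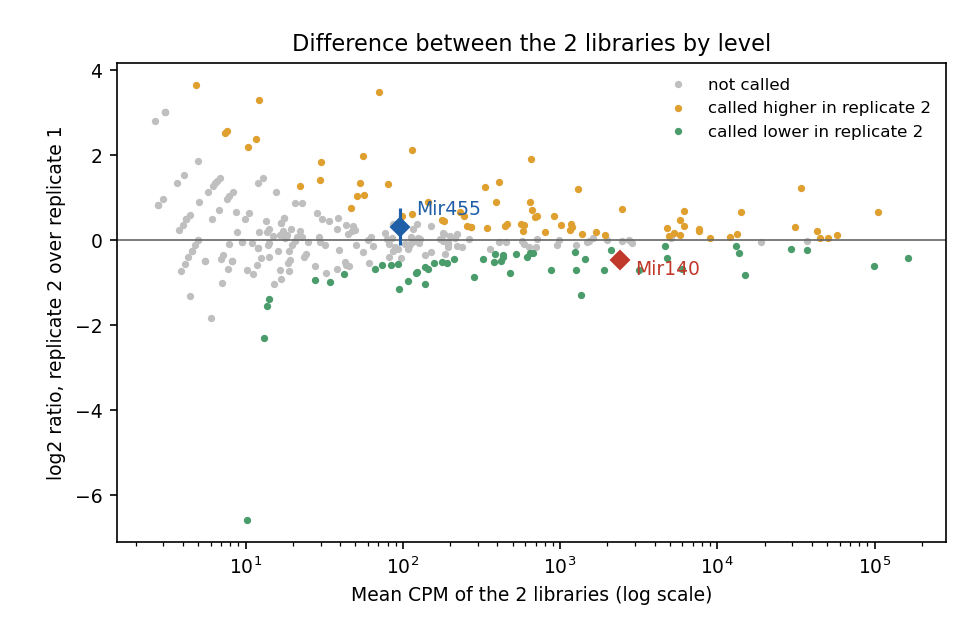
The log2 ratio of replicate 2 over replicate 1 against mean CPM (log scale) for the 311 genes tested, coloured by the call of the exact binomial test, with the members as diamonds and their 95% counting intervals as bars. Mir140, at -0.46, lies among the genes called lower and Mir455, at 0.30, among those not called, and both lie inside the cloud of the other genes.

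The seeds printed above for the members were nearly absent from other genes in the RefSeq table of 1738 mature strands. The seed of miR-140-5p, which has no entry in that table, was not searched. The seed of miR-140-3p occurs in miR-497b alone, and that of miR-455-5p in miR-5129-3p alone. No other strand of the table carries the seed of miR-455-3p. The 2 strands are shown to set their seeds, in capitals, beside those of the members.
miR-497b: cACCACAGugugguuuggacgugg
miR-5129-3p: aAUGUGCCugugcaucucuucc

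Mir497b had 0 counts in both libraries, a limit of 4.70 CPM for replicate 1 and of 1.32 for replicate 2 (3 counts of each total). Mir5129 had 0 counts in replicate 1 and 3 in replicate 2. Among assigned reads, the members were therefore the source of nearly all counts from genes with these 3 seeds in the table. Outside the seed the strands diverge. Each member strand was compared base by base from the first with strands of other genes that are at least as long. Shorter strands were left out. From every strand compared, miR-140-3p differs at 8 or more positions, miR-455-5p at 8 or more and miR-455-3p at 9 or more.

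The genes whose levels were most like those of the members over the 2 libraries were found by distance in log2(CPM + 1). Nearest to Mir140 was Mir145a, a microRNA of smooth muscle that also represses SOX9, with 2846 CPM in replicate 1 against 2044 CPM in the other library. The ratio of replicate 2 to replicate 1 was 0.718 for Mir145a, next to 0.726 for Mir140. The distance covers the level in both libraries, so this close ratio follows from how Mir145a was picked. Mir361, in an intron of Chm, followed with 2282 and 1953 CPM. Mir335 in the imprinted gene Mest, Mir130a and Mir125a came next, with ratios between 0.995 and 1.00. Nearest to Mir455 were Mir467e (78.3 and 118 CPM), Mir574 (75.1 and 99.0 CPM), Mir3102, Mir378d and Mir1249. Of these 5, only Mir467e was called different between the libraries, and it shares a run of 20 bases with a gene elsewhere, so its level is uncertain. With 2 libraries this likeness is a matter of level and 1 ratio.

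Other microRNAs linked to cartilage were taken from a list of 16 genes that includes the members. Of the 16, 14 were detected. The list summed to 14066 CPM in replicate 1 and 12635 in replicate 2, a mean of 13351 ± 1012 CPM (SD, n = 2), of which Mir140 and Mir455 gave 18.7%. Mir27b, which represses the collagenase Mmp13, was the highest at 4674 ± 318 CPM, followed by Mir145a at 2445 ± 567 CPM and then Mir140. Mir98, a let-7 family member, had 1623 ± 41.7 CPM. Mir214, Mir320 and Mir337 had 714 ± 197, 588 ± 103 and 411 ± 5.79 CPM. Mir146, known from inflammatory signalling, had 182 ± 40.6 CPM and Mir483, in an intron of the growth factor gene Igf2, had 151 ± 25.7 CPM. Mir455 came next after Mir483.

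Below Mir455 in that list stood genes with few counts. Mir199b had 29 counts in replicate 1 and 53 in replicate 2. Mir199a-2 had 4 and 44, and Mir365-2 had 6 and 14. Mir675, which is cut from the imprinted noncoding RNA H19 and raises type II collagen in chondrocytes, had 5 and 30 counts, or 7.83 and 13.2 CPM. Mir675 was taken here as a marker of chondrocytes and cartilage beside the 2 members, and it stood far below both. Which cells its counts came from was not tested. The 2 not called detected were Mir365-1, with 2 and 3 counts, and Mir199a-1, with 0. Of the 16, 7 share a run of 20 bases with a gene elsewhere (Mir27b, Mir146, Mir199a-1, Mir199a-2, Mir199b, Mir365-1 and Mir365-2), so their levels are uncertain, and a count of 0 sets no limit for Mir199a-1.

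**Figure D4:**
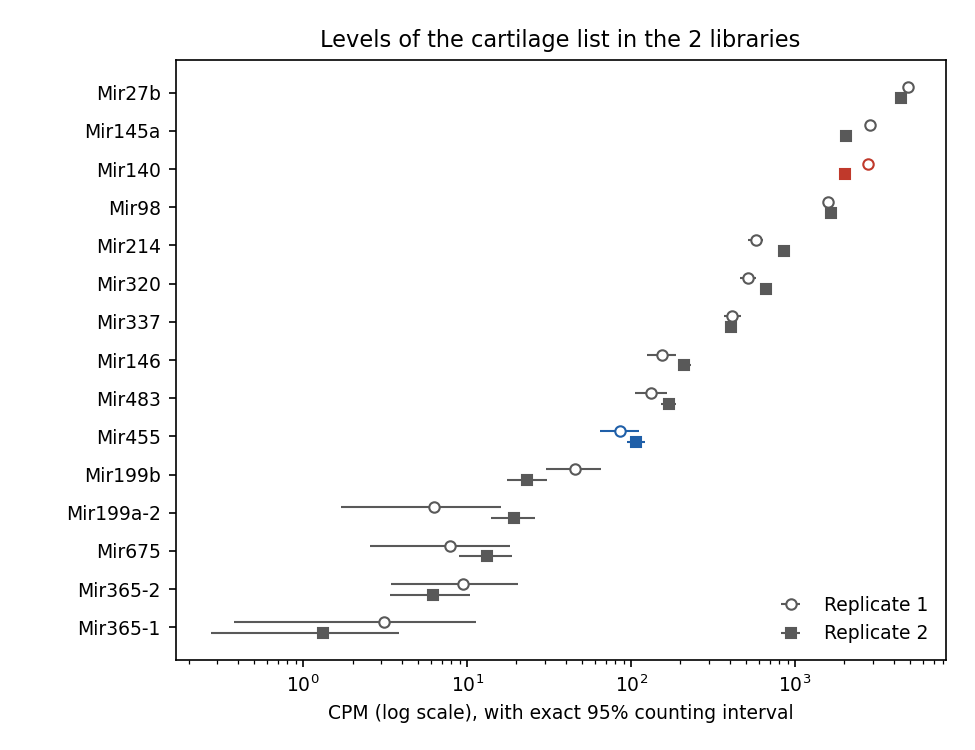
CPM on a log scale for the 15 genes of the cartilage list with a count, in replicate 1 (open circles) and replicate 2 (filled squares), with exact 95% counting intervals. Mir140, in red, has separate intervals with replicate 1 higher, and Mir455, in blue, has overlapping ones.

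In the cartilage list, 14 genes were tested between the libraries. In the exact binomial test 3 were higher in replicate 2 (Mir214, Mir320 and Mir146), 4 were lower (Mir140, Mir145a, Mir27b and Mir199b) and 7 did not pass. Its median log2 ratio was 0.18, against 0.04 over all 311 genes. Mir214 had 575 CPM in replicate 1 and 853 in replicate 2, a ratio of 1.48, the reverse of the difference seen for Mir140. Mir27b was at 0.908 times its level in replicate 1. A share of 7 called among 14 tested is not far from the 40.5% called among all genes, and Mir140 is itself among the 7.

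The tissue itself was checked with microRNAs of its main cell types. Markers of skeletal muscle summed to 22884 CPM in replicate 1 and 52158 in replicate 2, led by Mir206 at 34202 ± 19625 CPM, and all 9 were detected. Among them, the 5 Mir1a and Mir133 genes share a run of 20 bases with a gene elsewhere, so their levels are uncertain and the sum leaves out such reads. Mir126a of endothelium had 81286 and 129798 CPM. When strand was ignored its mean fell to 0.628 CPM, and the erythroid sum was 920 in place of 5432 CPM, so both rest on the use of strand. Markers of vascular smooth muscle, Mir143 and Mir145a, summed to 123068 and 81451 CPM. Those of fibroblasts, led by Mir21a, summed to 19698 and 11795 CPM with 4 of 5 detected and Mir199a-1 at 0. The Mir199 genes among them also share a run of 20 bases with a gene elsewhere. Their levels are therefore uncertain, and that 0 sets no limit. Erythroid markers, led by Mir451a, summed to 6176 and 4688 CPM, leukocyte markers, led by Mir155, to 2542 and 2889, and epithelial markers, led by Mir203, to 225 and 215.

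Several of these sums differed between the libraries in the direction of Mir140. The ratio of replicate 2 to replicate 1 was 0.662 for smooth muscle, 0.599 for fibroblasts and 0.759 for erythroid cells, next to 0.726 for Mir140. It was 2.28 for skeletal muscle and 1.60 for endothelium, and nearer to 1 for leukocytes (1.14) and epithelium (0.953). The endothelial list held Mir126a alone. The sums for smooth muscle, fibroblasts, erythroid cells and skeletal muscle were each carried mostly by 1 gene. Mir143 gave 99814 of the mean of 102259 CPM for smooth muscle. For erythroid cells, Mir451a gave 4788 of 5432 CPM. The other gene of each of these lists, Mir145a and Mir144, was also called lower in replicate 2. Mir21a gave 14986 of the mean of 15747 CPM for fibroblasts, where Mir214 was called higher in replicate 2 (1.48) and the median log2 ratio of the 4 tested genes was -0.12. Mir199b and Mir199a-2, whose levels are uncertain, are among these 4. Mir206 gave 34202 of 37521 CPM for skeletal muscle, where 4 of 9 genes were called higher, 5 did not pass and the median log2 ratio was 0.04. Those 5 were the Mir1a and Mir133 genes, whose levels are uncertain. Over all genes, 72 of the 311 tested were called higher in replicate 2. The part of cell composition in the difference in Mir140 was not tested. In whole tissue, fewer cells of a type and less RNA per cell cannot be told apart, and these counts do not show which cells of the muscle Mir140 and Mir455 came from. The label of connective tissue for the pair therefore rests on their known biology.

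The strand of the reads was clear for both members. Neither had a read on the opposite strand in either library, and when strand was ignored their counts stayed at 1775 and 4586 for Mir140 and at 55 and 243 for Mir455. No reads on the opposite strand were found for 290 of the 311 tested genes. Depth differed 3.56-fold, with 638779 counts assigned to microRNA genes in replicate 1 and 2272132 in replicate 2, and the intervals of replicate 2 are the narrower ones. Intervals cover the counting error of reads only. Reads copied by PCR are not independent molecules, so the error in molecules may be wider.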

How the data were processed

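MicroRNA sequencing gave 2 libraries of 1 group. The authors deposited raw read counts per microRNA gene, 1 table per library, on mm10 with annotation M21, per the texts deposited with them. For the aligner and the counter, the sources used here give no name. Of the 3 count columns, the second (same strand as the gene, from the larger total) was used. Rows without a gene stayed out of totals: unmapped (5.97 and 6.93% of reads), multi-mapping and no-feature reads (1.62 and 2.48%).

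The 311 genes with at least 10 counts in all were tested by an exact binomial test (two-sided, conditional on each gene's sum), p-values adjusted by Benjamini-Hochberg with a threshold of 0.05. The step was checked on simulated Poisson counts. Those hold counting error only, so the check does not cover the wider spread between these libraries. Log2 ratios used a prior count of 0.5. Alternatives were TMM and RLE scaling, other totals, filters, prior and strand, edgeR's exact test, and each library left out. Named genes were the members, the 5 nearest in level to each, seed mates, neighbours on the chromosome, collagen intron genes, detected cartilage list genes and the leader of each other list. Genes with overlapping intervals, and list genes not detected, were named after their values were seen. Members and lists were chosen with earlier results of these data known. Software was Python 3.11.15, scipy 1.17.1, R 4.3.3, edgeR 4.0.16 and RNAfold 2.7.2.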

Additional observations from a re-analysis of the deposited data

How the results depend on the processing

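CPM depends on the total it is divided by. Mir140 averaged 402 and Mir455 16.05 per 1000000 of all reads, 3823 and 153 without the 3 most abundant genes, 3426 and 138 with unstranded counts, and 3477 and 139 over genes that share no run of 20 bases with a gene elsewhere, a total chosen after seeing the data. TMM and RLE scaling moved both by less than the SD. The scaled totals kept the geometric mean of the original ones, so the mean level could move little. Unstranded counts put Mir140 at rank 35 and Mir455 at rank 131, and the cartilage list at 18484 CPM. With 1 library left out, Mir140 ranged from 2018 to 2779 CPM (ranks 37 to 40), Mir455 from 86.1 to 107 CPM (ranks 143 to 155), their ratio from 18.9 to 32.3 and the cartilage list from 12635 to 14066 CPM. The ratio between libraries has no value with 1 library. Mir455 was called under no alternative, so it has no established direction. Mir140 kept its direction under each other scaling, total and strand setting. For other filters, no prior and edgeR's exact test, its log2 ratio came from the same counts and totals, so its direction could not change. Its call held under all but edgeR's exact test. There the Mir140 log2 ratio of -0.46 had an adjusted p of 1, and 1 gene was called higher and 1 lower in replicate 2, with 17 and 3 at an unadjusted p under 0.05. Counting that spread as noise is how that test differs. No paired analysis was possible because the series has 1 group. With 55 counts in replicate 1, the depth limits the precision of Mir455 there.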
